A study of Mus musculus with 117 samples.

Results

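RNA that stayed in solution after an astrocyte pull-down was compared between mouse spinal cord 70 d after spinal cord injury (SCI) and uninjured spinal cord. The libraries were chosen by their titles, 4 flow-through libraries at 70 d after SCI and 4 flow-through libraries of uninjured mice of the Aldh1l1 line, which are 8 of the 117 libraries of the series and 8 of its 47 flow-through libraries. All 8 mice were labelled female and carried Aldh1l1-CreERT2 together with the RiboTag allele, so that astrocytes, in which the Aldh1l1 promoter is active, carried HA-tagged ribosomes. The injured mice had received a complete crush of the thoracic cord, and the tissue taken was a short block on both sides of the lesion centre, with the lesion core in it. Equivalent tissue was taken from the uninjured mice, and both groups were perfused with saline. After the antibody to HA had taken out tagged ribosomes, the RNA of the remaining solution was sequenced, so these libraries hold the RNA of neurons, oligodendrocytes, immune cells, stroma and vessels in one mixture, with the astrocyte RNA that was not pulled down. The cells were not sorted. The mice were young adults of 3 to 4 months, and since the study's methods do not say whether uninjured mice were matched in age to those collected 70 d after surgery, age and injury cannot be told apart.

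After a crush injury, the spinal cord is left with a core without neural cells, filled with fibroblast-like stroma and with macrophages that have taken up myelin, and with a border of astrocytes around it. Myelin is rich in cholesterol, and a phagocyte that digests it in lysosomes has to store the cholesterol as ester or pass it to lipoprotein particles through ABC transporters and apolipoprotein E. Cholesterol itself does not cross from blood into the cord in bulk, so neural cells make their own, by a pathway whose genes are switched on by SREBP2 when membrane cholesterol is low and switched off when it is plentiful.

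The 4 uninjured libraries held 99521160 to 115137979 counts and the 4 libraries at 70 d held 83123231 to 110420907. Levels are given as counts scaled to a common library size (CPM, with TMM factors). Changes are log2 fold changes at 70 d against uninjured, each with its standard error (SE), from the quasi-likelihood test of edgeR. A gene was called where its p, adjusted by Benjamini-Hochberg over all genes tested, was under 0.01. The first principal component held 77.9% of the variance and separated the groups. The second held 6.03%, and 70 d replicate 2 lay at one end of it, at 40 against -28.5 to -1.8 for the other 3 injured libraries. This library held more RNA of neurons, among them primary sensory neurons of the dorsal root ganglia, and less of macrophages than the other 3, so results that rest on it are also given without it. The uninjured libraries expressed the markers of the labelled tissue, with summed levels of 13570 to 15700 CPM over 14 neuronal genes and 29930 to 34220 CPM over 14 genes of oligodendrocytes.

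Of 18056 genes tested, 4503 were called higher at 70 d (24.9%) and 3883 lower (21.5%), with a median change of 0.01 over all genes. The majority turned with the scaling, to 4057 higher and 4210 lower with library totals and to 3920 and 4781 with offsets for exon length. The groups did not overlap for 10113 of the genes tested. Among called genes with a mean of at least 5 CPM in the higher group and no overlap between groups, the 6 with the highest rise were led by Apoc4. This apolipoprotein gene, which lies beside Apoe, stood at 0.0195 to 0.0688 CPM in uninjured cord and at 78.3, 61.4, 138.9 and 124.2 CPM in the injured libraries, a change of 11.12 ± 0.41. Mmp12, the macrophage elastase, rose by 9.27 ± 0.76, from at most 0.342 CPM to 29.2 CPM or more. Gpnmb, a glycoprotein of lysosome-rich phagocytes, rose by 8.42 ± 0.45 and Atp6v0d2, a subunit of the vacuolar proton pump, by 8.33 ± 0.56. The serotonin receptor gene Htr2b (7.92 ± 0.82) and Cst7 (7.91 ± 0.27), which encodes an inhibitor of lysosomal proteases, completed the 6. The 6 with the deepest fall under the same conditions are known for their expression in neurons. They were the protocadherin gene Pcdhac2 (-4.13 ± 0.46), the presynaptic release-site gene Rims1 (-3.73 ± 0.37), the glycine transporter gene Slc6a5 (-3.51 ± 0.30), Clvs1 (-3.45 ± 0.45), the vesicle calcium sensor Syt2 (-3.28 ± 0.29) and the GABA-B receptor subunit Gabbr2 (-3.25 ± 0.34). In these bulk libraries, fewer cells of a type and less RNA per cell cannot be told apart.

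**Figure D1:**
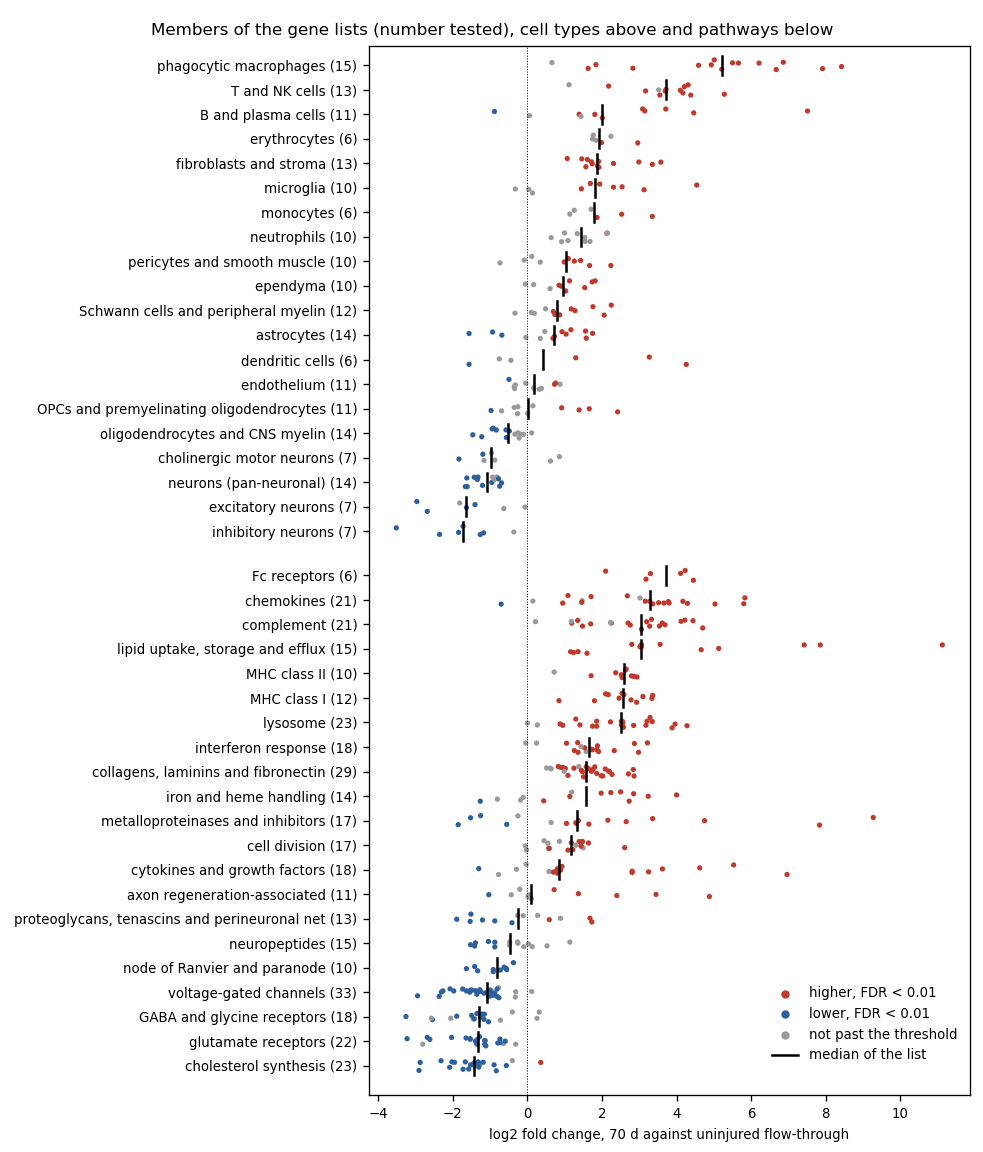
Each point is 1 tested gene of a list, placed at its log2 fold change at 70 d against uninjured flow-through, red where called higher, blue where called lower and grey where not called; the bar is the median of the list and the number in brackets is how many genes were tested. Phagocyte, lymphocyte, complement, MHC, lysosome and lipid-handling genes lie to the right, and neuronal, channel, receptor and cholesterol synthesis genes to the left.

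Genes of phagocytic macrophages were the list with the highest median, and 14 of 15 were called higher, none lower, with a median of 5.21, where 24.9% of all genes tested were called higher. Gpnmb stood at 7.45, 5.87, 7.63 and 6.38 CPM in the 4 uninjured libraries and at 1468, 1097, 3564 and 3246 CPM at 70 d. Replicates 3 and 4 were the highest and replicate 2 the lowest, and the groups were far apart. Lgals3, the galectin of activated macrophages, rose by 6.67 ± 0.40 (edgeR adjusted p = 1e-06), the integrin gene Itgax by 6.86 ± 0.31 and Trem2, the lipid-sensing receptor of microglia and macrophages, by 5.01 ± 0.26. Cd163, a haemoglobin scavenger receptor of perivascular macrophages, was the member that did not pass (0.66 ± 0.31). Among 10 microglial genes, 7 were called higher and none lower, with a median of 1.81. The rise was uneven. Fcrls rose by 4.54 ± 0.26 and Cx3cr1, the fractalkine receptor, by 2.54 ± 0.12. P2ry12, the ADP receptor of surveying microglia, measured 9.94, 12.7, 10.5 and 8.90 CPM in uninjured cord and 11.2, 14.1, 11.2 and 10.0 CPM at 70 d, a change of 0.14 ± 0.15 that was not called, and the groups overlapped. Siglech (0.04 ± 0.12) and the transcription factor gene Sall1 (-0.32 ± 0.15) did not pass either. Of 6 genes of monocytes, 3 were called higher, Ccr2 by 1.87 ± 0.33, Plac8 by 2.53 ± 0.57 and Itgal by 3.35 ± 0.30.

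Lysosomal genes moved together. Of 23, 21 were called higher and none lower, with a median of 2.52. Ctsd (Entrez 13033, chromosome 7, 142375910 to 142387827 of GRCm38), the aspartic protease cathepsin D, rose from 557, 534, 583 and 541 CPM to 8343, 5850, 14500 and 14230 CPM, a change of 4.28 ± 0.29 (edgeR adjusted p = 2e-06). The injured replicates differed among themselves by more than the uninjured ones, with replicate 2 the lowest, and stayed above all uninjured libraries. Ctss (3.96 ± 0.18), Ctsz (3.88 ± 0.23), the lysosomal growth factor progranulin Grn (3.35 ± 0.25) and the hexosaminidase subunit Hexa (3.18 ± 0.19) followed. The 2 members that were not called were Neu1, a sialidase (0.00 ± 0.09), and Npc1, which exports cholesterol from lysosomes (0.27 ± 0.15), while its soluble partner Npc2 rose by 2.23 ± 0.18. Lysosomal genes are known to share a promoter element, the CLEAR box (searched as TCACGTGA, which reads the same on both strands and holds the E-box CACGTG). In the 250 bases before the start it stood in 1 of 18 lysosomal genes with a promoter sequence (5.56%) against 0.907% of the 27025 genes with such a sequence. That gene was Ctsd, shown here from RefSeq on GRCm38, chr7:142387828-142388077 on the minus strand, with the box, 99 bases before the start, in capitals.
Ctsd: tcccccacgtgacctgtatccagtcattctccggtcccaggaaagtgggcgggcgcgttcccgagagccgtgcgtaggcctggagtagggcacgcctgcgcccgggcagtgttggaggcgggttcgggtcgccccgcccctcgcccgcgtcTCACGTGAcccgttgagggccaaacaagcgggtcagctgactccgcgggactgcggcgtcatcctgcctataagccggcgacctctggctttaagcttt

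All 15 genes of lipid uptake, storage and efflux were called higher, with a median of 3.06. Apoe (Entrez 11816, chromosome 7, 19696244 to 19701310), the main lipid carrier of the central nervous system, measured 1321, 1254, 1356 and 1292 CPM in uninjured cord and 36950, 26940, 58170 and 60540 CPM at 70 d. Its change was 5.13 ± 0.29 (edgeR adjusted p = 8e-07), and its transcripts made up 2.77 to 5.67% of all counts at 70 d against 0.130 to 0.139% in uninjured cord. The other apolipoprotein genes of the same cluster moved further on the log2 scale, with Apoc1 at 7.42 ± 0.29, Apoc2 at 7.85 ± 0.34 and Apoc4 at 11.12 ± 0.41. The list covered each step of lipid handling. Lipoprotein lipase (Lpl, 4.66 ± 0.18) and the scavenger receptor Cd36 (3.06 ± 0.40) bring lipid in, Soat1 (2.80 ± 0.15) makes cholesterol esters, Plin2 (3.02 ± 0.24) coats lipid droplets and Abca1 (3.56 ± 0.18) and Abcg1 (1.36 ± 0.12) export cholesterol. Ch25h, which makes 25-hydroxycholesterol, rose by 3.06 ± 0.18.

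Cholesterol synthesis went the other way. Of 23 genes, 21 were called lower and 1 higher, with a median of -1.42, where 21.5% of all genes tested were called lower. Hmgcs1 (Entrez 208715, chromosome 13, 119690351 to 119708260), which makes HMG-CoA, fell from 342.6, 362, 338 and 306 CPM to 68.4, 139.7, 60.8 and 62.4 CPM, a change of -2.02 ± 0.25 (edgeR adjusted p = 6.1e-05). Replicate 2 was the highest injured library for this gene, and the groups did not overlap with it or without it. Sqle, squalene epoxidase, fell by 2.08 ± 0.25. The deepest falls were those of Stard4, a cholesterol carrier in the cytosol (-2.90 ± 0.26), and Idi1 (-2.87 ± 0.33). Srebf2, which encodes SREBP2 (-1.31 ± 0.10), and its brake Insig1 (-1.72 ± 0.16), both of them targets of SREBP2, fell as well. Ebp, the sterol isomerase, was the member called higher (0.36 ± 0.09, and 0.00 where each library's counts were adjusted for exon length), and Pmvk was not called (-0.40 ± 0.13). The element bound by SREBP2 was searched as TCACNCCAC on both strands. It stood in 1 of 16 promoters of the list (6.25%) against 1.22% of the 27025, and the lysosomal list also had 1 of 18. The match of the list was in Hmgcs1, printed from RefSeq on GRCm38, chr13:119690101-119690350 on the plus strand, with the element, 137 bases before the start, in capitals.
Hmgcs1: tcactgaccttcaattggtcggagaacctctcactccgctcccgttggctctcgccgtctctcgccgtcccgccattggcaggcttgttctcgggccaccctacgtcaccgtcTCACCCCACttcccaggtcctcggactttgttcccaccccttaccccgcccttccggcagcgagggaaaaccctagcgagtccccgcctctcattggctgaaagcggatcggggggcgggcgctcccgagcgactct

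**Figure D2:**
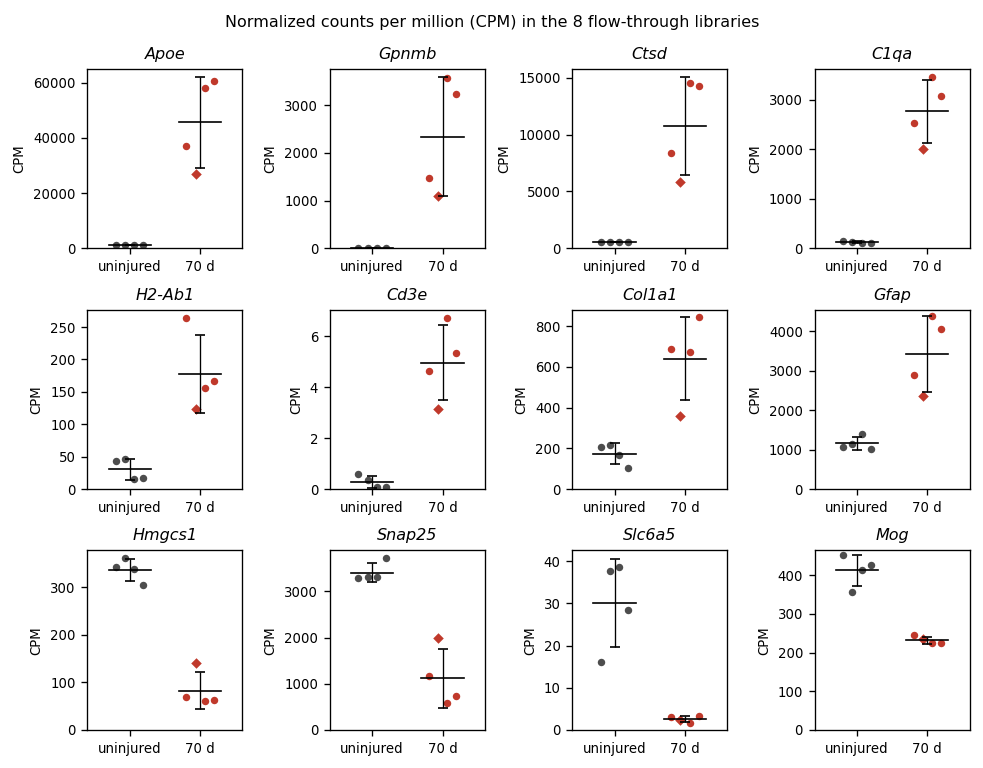
Each panel gives 1 gene in CPM on a linear axis from 0, with 1 point per library, the mean as a line and the SD as a bar (4 libraries a group); the diamond is 70 d replicate 2. The groups are apart in all 12 genes. Replicate 2 is the lowest injured library for Apoe, Gpnmb, Ctsd, C1qa, H2-Ab1, Cd3e, Col1a1 and Gfap and the highest for Hmgcs1 and Snap25.

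Innate immune genes stayed high. Of 21 complement genes, 18 were called higher and none lower, with a median of 3.06. C1qa, a chain of the first component, stood at 148, 129, 117 and 116 CPM in uninjured cord and at 2527, 2008, 3457 and 3070 CPM at 70 d (4.44 ± 0.20, edgeR adjusted p = 3.1e-07). C3, the component on which all pathways converge, rose by 3.33 ± 0.23, and the receptors for its fragments and for those of C5, C3ar1 (4.70 ± 0.24) and C5ar1 (3.28 ± 0.28), rose with it. The 3 members that did not pass were the regulators Cd55 (1.18 ± 0.38) and Cd59a (0.22 ± 0.11) and the phagocytic receptor Vsig4 (2.23 ± 0.78). All 6 genes of Fc receptors, which bind antibodies, were called higher, with a median of 3.71 and the shared signalling chain Fcer1g at 4.45 ± 0.24. Of 21 chemokine genes, 17 were called higher and 1 lower, with a median of 3.28. Ccl3 (5.83 ± 0.24) and Ccl4 (5.80 ± 0.55) rose furthest, and Cx3cl1, the membrane-bound fractalkine of neurons, was the one that fell (-0.70 ± 0.11). Of 18 cytokine and growth factor genes tested, 13 were called higher, among them Tnf (6.96 ± 0.67), Il1rn (5.53 ± 0.42), Osm (4.62 ± 0.39), Il1b (3.25 ± 0.39) and Tgfb1 (2.81 ± 0.28). Vegfa, the growth factor of vessels, was called lower (-1.30 ± 0.11).

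Antigen presentation genes rose in both classes. All 12 genes of MHC class I presentation were called higher, with a median of 2.57, led by the immunoproteasome subunits Psmb8 (3.36 ± 0.23) and Psmb9 (3.34 ± 0.30), and B2m, the shared light chain, rose by 2.78 ± 0.23. Of 10 genes of MHC class II, 9 were called higher, with a median of 2.58. H2-Ab1, a class II beta chain, measured 43.1, 46.7, 16.2 and 17.9 CPM in uninjured cord and 264, 124, 156 and 167 CPM at 70 d (2.52 ± 0.38, edgeR adjusted p = 0.0002). Replicate 1 was the highest injured library here, with a summed level over the class II genes of 1614 CPM against 742 to 1119 CPM in the other 3. Ciita, the master activator of class II genes, was not called (0.72 ± 0.45), and measured 3.31 CPM in replicate 1 and 0.818 to 1.14 CPM in the other injured libraries. Genes of the interferon response rose less, 14 of 18 called higher and none lower with a median of 1.66 and Zbp1, a sensor of nucleic acid, as the highest (3.22 ± 0.52).

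Lymphocyte transcripts were low in number and higher after injury. Of 13 genes of T and NK cells, 11 were called higher and none lower, with a median of 3.72. Cd3e, a chain of the T cell receptor complex, stood at 0.608, 0.343, 0.0982 and 0.0973 CPM in uninjured cord and at 4.62, 3.16, 6.70 and 5.33 CPM at 70 d (4.10 ± 0.55, edgeR adjusted p = 9.7e-05). The groups did not overlap. Both Cd4 (3.70 ± 0.25) and Cd8a (3.55 ± 0.73) rose. Foxp3, the factor of regulatory T cells, was not called (1.12 ± 0.61), nor was Gzmk (3.52 ± 1.1). Of 11 genes of B and plasma cells tested, 8 were called higher. They were led by immunoglobulin genes, which are alike in sequence and may share reads, with Ighg2b at 7.51 ± 0.71, Ighg2c at 4.46 ± 0.67 and the light chain Igkc at 3.71 ± 0.63. Igkc measured 11.4, 6.58, 1.28 and 2.13 CPM before and between 38 (replicate 1) and 98.1 CPM (replicate 3) after injury. Jchain, which joins antibodies into multimers, rose by 3.15 ± 0.61, whereas Ighm was lower (-0.88 ± 0.13). Neutrophil genes gave 1 call of 10 (Mmp8, 2.14 ± 0.43), and S100a8 (1.00 ± 0.51) and S100a9 (1.09 ± 0.51) overlapped between the groups. Dendritic cell genes had no common direction, 3 of 6 higher and Flt3 lower (-1.56 ± 0.25). Among red cell genes 2 of 6 were called higher, the globin gene Hba-a2 (2.96 ± 0.57), which has a near-identical copy, and the anion exchanger Slc4a1 (1.99 ± 0.43). Their summed level ranged from 7.25 to 32.3 CPM in uninjured and from 35.8 to 159.8 CPM in injured libraries, and the part of remaining blood in the immune results was not tested.

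All 13 genes of fibroblasts and stroma were called higher, with a median of 1.88. Col1a1, the alpha 1 chain of fibrillar collagen I, measured 209, 216, 169 and 103 CPM in uninjured cord and 689, 360, 672 and 845 CPM at 70 d (1.88 ± 0.28, edgeR adjusted p = 0.00021). Replicate 2 was the lowest injured library and still above the uninjured ones. Mgp, an inhibitor of calcification, rose by 3.58 ± 0.35, periostin (Postn) by 3.35 ± 0.21 and Fap, a marker of activated fibroblasts, by 2.99 ± 0.21. Of 29 genes of collagens, laminins and fibronectin, 24 were called higher and none lower, with a median of 1.58, and without replicate 2 all 29 were called higher. Fn1, fibronectin, rose from 63.8, 84.0, 48.4 and 24.2 CPM to 411.5, 265, 443.9 and 483 CPM (2.86 ± 0.34). The collagen VI chain Col6a2 (2.84 ± 0.27) rose about as far, and the basement membrane collagen Col4a1 rose by 1.25 ± 0.21. Proteases and their inhibitors were split, 11 of 17 higher and 4 lower. Mmp12, Mmp3 (7.83 ± 0.82), Mmp13 (3.36 ± 0.68), Mmp14 (2.65 ± 0.18) and the inhibitor Timp1 (4.75 ± 0.28) were among those that rose. Mmp24 (-1.85 ± 0.19), Mmp17 (-1.52 ± 0.12), Mmp9 (-1.25 ± 0.20) and Adamts4 (-0.55 ± 0.13) fell. Endothelial genes had 2 of 11 called higher, a share near the 24.9% of all genes, Cldn5 (0.73 ± 0.16) and Emcn (0.76 ± 0.15), and 1 lower, Plvap (-0.49 ± 0.11), with a median of 0.17, and 5 were called higher without replicate 2. Mural cell genes had 6 of 10 higher, with the pericyte receptor Pdgfrb at 1.67 ± 0.18 and Rgs5, another pericyte gene, not called (-0.73 ± 0.27).

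Among genes of proteoglycans and the perineuronal net, the matrix coat around neurons, 3 of 13 were called higher, a share near the 24.9% of all genes. Another 6 were called lower, where 21.5% of all genes were, and the median was -0.26. Bgn, a small proteoglycan of stroma (1.73 ± 0.29), tenascin C (Tnc, 1.68 ± 0.18) and versican (Vcan, 0.59 ± 0.15) rose. Aggrecan (Acan, -1.51 ± 0.24), the core of the net, and the link proteins Hapln1 (-1.53 ± 0.35), Hapln2 (-0.87 ± 0.09) and Hapln4 (-1.89 ± 0.23) fell. Has3, a hyaluronan synthase (-1.20 ± 0.30), and Cspg5 (-0.41 ± 0.09) were also lower. Brevican (Bcan, -0.11 ± 0.13) and neurocan (Ncan, 0.28 ± 0.13) were not called.

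Astrocyte genes left in the flow-through changed in both directions. Of 14, 8 were called higher and 3 lower, with a median of 0.71. Gfap, the intermediate filament of reactive astrocytes, measured 1072, 1152, 1396 and 1026 CPM in uninjured cord and 2883, 2351, 4377 and 4061 CPM at 70 d (1.56 ± 0.20, edgeR adjusted p = 8.7e-05). Sox9, the astrocyte transcription factor, rose by 1.75 ± 0.11, connexin 30 (Gjb6) by 1.58 ± 0.12 and Aldh1l1 itself, whose promoter drove Cre, by 0.69 ± 0.14. Slc7a10, a transporter of serine and alanine (-1.56 ± 0.22), Gpc5 (-0.93 ± 0.22) and Aldoc (-0.68 ± 0.13) fell, and Slc1a2, the main glutamate transporter, was not called (0.35 ± 0.10, edgeR adjusted p = 0.012). Ependymal genes had 7 of 10 higher and none lower, with a median of 0.97, and Dynlrb2, a dynein light chain of cilia, rose by 1.82 ± 0.21, whereas Foxj1, the master factor of motile cilia, was not called (-0.05 ± 0.10). Genes of oligodendrocyte precursor cells (OPCs) and premyelinating oligodendrocytes had a median of 0.01. Of 11, 4 were called higher, where 24.9% of all genes were, 1 was called lower and 6 were not called. Those called higher were Bmp4 (2.42 ± 0.26), Cspg4 (1.66 ± 0.14), C1ql1 (1.39 ± 0.20) and Pdgfra (0.92 ± 0.15). The lower one was Enpp6 (-0.97 ± 0.13), a gene of newly forming oligodendrocytes. Genes of Schwann cells had 8 of 12 higher and none lower, with a median of 0.80. Gldn, which clusters sodium channels at peripheral nodes, rose by 1.76 ± 0.22. Ngfr, the low-affinity neurotrophin receptor, rose by 2.25 ± 0.51, but measured 61.3 CPM in replicate 2 and 10.7 to 16.2 CPM in the other injured libraries.

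Central myelin fell moderately. Of 14 genes of oligodendrocytes, 8 were called lower and none higher, with a median of -0.52. Mog (Entrez 17441, chromosome 17, 37010740 to 37023398), a protein on the outer face of central myelin, measured 452, 356.5, 413.5 and 426 CPM in uninjured cord and 244, 234, 223.5 and 226 CPM at 70 d (-0.83 ± 0.10, edgeR adjusted p = 5.6e-05). The 4 injured libraries lay close together, all below the uninjured ones. Ugt8a, which makes the myelin lipid galactosylceramide, fell by 1.46 ± 0.13 and Mobp by 1.22 ± 0.14. Mbp fell by 0.57 ± 0.16, and its adjusted p without replicate 2 was 0.01, at the threshold. Cldn11 (0.12 ± 0.11), Opalin (-0.19 ± 0.13), Aspa (-0.10 ± 0.09) and the myelin transcription factor gene Myrf (-0.25 ± 0.10) were not called. All 10 genes of the node of Ranvier and the paranode, where axon and myelin are joined, were called lower, with a median of -0.82, from Cntn2 (-0.37 ± 0.09) to the axonal scaffold Sptbn4 (-1.63 ± 0.17) and the axonal partner of the paranode Cntnap1 (-1.33 ± 0.15).

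Of 14 pan-neuronal genes, 11 were called lower and none higher, with a median of -1.08, and without replicate 2 all 14 were called lower with a median of -1.45. Snap25 (Entrez 20614, chromosome 2, 136713439 to 136782428), a core protein of synaptic vesicle fusion, measured 3278, 3312, 3310 and 3724 CPM in uninjured cord and 1172, 1980, 575 and 727 CPM at 70 d (-1.61 ± 0.33, edgeR adjusted p = 0.0015). Replicate 2 was the highest of the injured libraries and replicate 3 the lowest, and none reached the uninjured range. Rbfox3, which encodes the nuclear marker NeuN, fell by 1.62 ± 0.19 and the neurofilament genes Nefl by 1.66 ± 0.36, Nefm by 1.42 ± 0.33 and Nefh by 1.32 ± 0.29. Inhibitory neurons gave 6 of 7 lower, with a median of -1.72. Slc6a5, the transporter of glycinergic terminals, fell from 16.02, 37.6, 38.6 and 28.4 CPM to 3.06, 2.47, 1.70 and 3.35 CPM (-3.51 ± 0.30, edgeR adjusted p = 7e-06), in replicate 2 as in the others. Gad1, which makes GABA, fell by less (-1.26 ± 0.22). Excitatory neurons gave 4 of 7 lower, with a median of -1.63, among them the vesicular glutamate transporter Slc17a6 (-1.63 ± 0.35) and the dorsal horn factor Lmx1b (-2.96 ± 0.55). Of 7 genes of cholinergic motor neurons, Chat, which makes acetylcholine (-1.83 ± 0.25), and the vesicular transporter Slc18a3 (-1.19 ± 0.23) were called lower, where 21.5% of all genes were. Without replicate 2, 5 of the 7 were called lower. The summed level of this list was 363.3 to 387.3 CPM in uninjured cord and 220.8, 721.5, 106.6 and 155.5 CPM in the injured libraries, so replicate 2 lay above the uninjured range.

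Receptors and channels of neurons followed the same direction. Of 22 glutamate receptor genes, 19 were called lower and none higher, with a median of -1.31, from Grik2 (-0.59 ± 0.10) to the metabotropic receptor Grm4 (-3.22 ± 0.46). The obligatory NMDA receptor subunit Grin1 fell by 1.53 ± 0.13. Of 18 genes of GABA and glycine receptors, 11 were called lower and none higher, with a median of -1.30, and Glra1, the adult glycine receptor subunit, fell by 2.54 ± 0.33. Of 33 voltage-gated channel genes, 28 were called lower and none higher, with a median of -1.08, and 32 without replicate 2. Hcn4, a pacemaker channel, fell furthest (-2.94 ± 0.41). Scn8a, the sodium channel of mature nodes, fell by 1.16 ± 0.24. Neuropeptide genes were the neuronal list with the smallest median, -0.47, with 6 of 15 lower and none higher, and 11 of 15 lower without replicate 2. Prodynorphin (Pdyn, -1.52 ± 0.21) and cholecystokinin (Cck, -1.41 ± 0.20) fell. Calca, the CGRP precursor of sensory afferents, measured 41.8, 254.3, 8.54 and 11.5 CPM at 70 d, with replicates 1 and 2 above and replicates 3 and 4 below the uninjured mean of 35.8 ± 9.75 (SD) CPM.

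Genes of primary sensory neurons, a list added after the values had been seen, set 70 d replicate 2 apart. Their cell bodies lie in the dorsal root ganglia, outside the cord. The summed level of the list was 15.6 to 18.9 CPM in uninjured cord and 12.99, 207.9, 6.01 and 8.36 CPM in the injured libraries. Scn11a, a sodium channel of nociceptors, stood at 49.9 CPM in replicate 2 and at 0.0774 to 0.775 CPM in the other 3, and was called higher (7.36 ± 2.0, edgeR adjusted p = 0.0087). Without replicate 2 its change was 2.18, and 2 genes of the list were called lower and none higher. The part that ganglion tissue plays in the other neuronal values of this library was not tested. With it left out, the 3 remaining libraries at 70 d gave 4954 genes called higher and 4575 lower of 18286 tested.

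**Figure D3:**
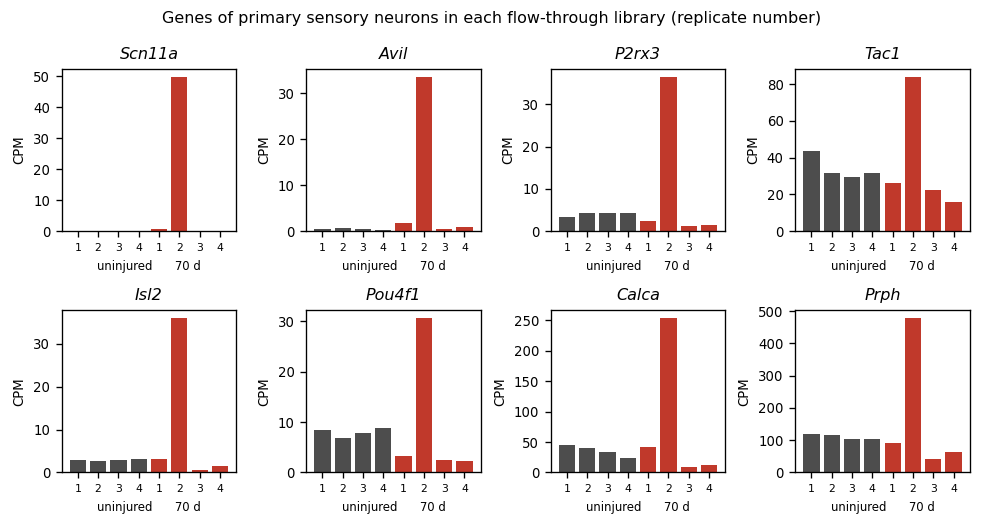
Each bar is the level of a gene in 1 flow-through library, in CPM on a linear axis from 0, for the 4 uninjured (grey) and the 4 injured (red) libraries by replicate number. Injured replicate 2 is the highest bar in all 8 genes, far above the other injured libraries.

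Genes tied to axon regrowth showed a mixed picture at this late time, 5 of 11 higher and 1 lower with a median of 0.11. Atf3, a stress-induced transcription factor, rose by 4.88 ± 0.30, Sprr1a by 3.45 ± 0.29 and the small heat shock protein Hspb1 by 2.40 ± 0.13. Gap43, the classic growth cone protein, was not called (0.02 ± 0.10), and Basp1, a related membrane protein, fell by 1.03 ± 0.15. Iron and heme handling gave 9 of 14 higher, with the phagosomal metal transporter Slc11a1 (4.00 ± 0.30), ferritin light chain Ftl1 (3.24 ± 0.28) and heme oxygenase Hmox1 (2.85 ± 0.18), while Ncoa4, the ferritin degradation receptor, was lower (-1.26 ± 0.20) and Fth1 was not called (-0.11 ± 0.25). Of 17 cell division genes, 9 were called higher and none lower, with a median of 1.18. Mki67, which encodes the proliferation antigen Ki67, measured 1.51, 2.05, 1.13 and 0.905 CPM in uninjured cord and 6.31, 10.3, 10.2 and 7.51 CPM at 70 d (2.61 ± 0.28), low but without overlap.

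To place 70 d on the course of the lesion, it was set against flow-through libraries of the same line at 2 d (5 mice), 14 d (4) and 42 d (4), in 1 fit over 29 flow-through libraries, on whose scale the levels of this and the next paragraphs are given. These comparisons share the libraries at 70 d, and the 3 highest and lowest genes of each are taken from those with a mean of at least 5 CPM in the higher group and no overlap. Against 2 d, 5149 of 19207 genes were called higher at 70 d (26.8%) and 4364 lower (22.7%), while a fit of the 2 groups alone called 2252 higher and 2704 lower. The sex labels go against the data in this comparison, since all 5 libraries at 2 d, labelled female, held 28.0 to 124.9 CPM of the Y-linked gene Ddx3y and at most 0.434 CPM of Xist, against at most 0.0725 CPM and 51.6 to 65.7 CPM at 70 d. Ddx3y, Eif2s3y and Xist were therefore among the genes that differed most, and off the sex chromosomes 4974 genes were called higher and 4230 lower. Cell division genes were 16 of 17 lower than at 2 d, with a median of -3.77 and Mki67 down from 158.7 ± 29.7 to 8.03 ± 1.96 CPM (mean ± SD). Lipid handling genes were 10 of 15 lower and 4 higher, and lysosomal genes 17 of 23 lower and 1 higher. Apoe was among the lipid handling genes that were higher, at 17390 ± 3850 CPM at 2 d and 42660 ± 15350 CPM at 70 d (1.29 ± 0.19, edgeR adjusted p = 1.7e-06). Spp1, osteopontin, was at 16850 ± 3539 CPM at 2 d and at 1060 ± 303.4 CPM at 70 d, and Col10a1, a collagen of hypertrophic cartilage, at 25.2 ± 17.1 and 0.0549 ± 0.0451 CPM. Neuronal genes were 12 of 14 higher than at 2 d, and 10 of 14 without 70 d replicate 2. Snap25 stood at 142 ± 88.1 CPM at 2 d and at 1042 ± 599 CPM at 70 d, still under the 3220 ± 183.7 CPM of uninjured cord on this scale. Isl2, a gene of sensory neurons, was also among the 3 highest, and is among the genes in which replicate 2 stood apart.

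Fewer genes separated 70 d from 14 d, 320 higher (1.67%) and 613 lower (3.19%), and without replicate 2 they were 80 and 268. Leaving out 14 d replicate 2 (384 in all), 14 d replicate 3 (598), 14 d replicate 4 (72 higher and 331 lower) or 70 d replicate 1 (424) lowered the count as well, and a fit of the 2 groups alone called 180 higher and 400 lower. Matrix genes were the largest group among the lists. Of 29 genes of collagens, laminins and fibronectin, 22 were lower at 70 d than at 14 d, with a median of -1.34, and 18 without replicate 2. Col1a1 fell from 3372 ± 157.7 CPM at 14 d to 598 ± 186 CPM at 70 d (-2.49 ± 0.37, edgeR adjusted p = 7.6e-05) and Col4a1 from 285 ± 55.0 to 64.7 ± 19.96 CPM (-2.14 ± 0.24). Cell division genes were 12 of 17 lower, with a median of -1.36. Sprr1a had the deepest fall, from 194.8 ± 21.5 to 5.21 ± 1.31 CPM (-5.22 ± 0.24), followed by the collagen VII gene Col7a1 (-3.06) and C1qtnf6 (128.6 ± 6.66 to 15.6 ± 2.43 CPM, -3.04). Oligodendrocyte genes were 6 of 14 lower than at 14 d, when Mog had been at 382.9 ± 14.3 CPM, close to the 389 ± 35.3 CPM of uninjured cord, against 216.5 ± 7.19 CPM at 70 d (-0.82 ± 0.12, edgeR adjusted p = 6e-05). Gpr17, a gene of premyelinating oligodendrocytes, fell by 1.53 ± 0.32. MHC class II genes were 4 of 10 higher and none lower with and without replicate 2, and H2-Ab1 rose from 51.9 ± 8.196 to 165.5 ± 54.2 CPM (1.67 ± 0.26). Hba-a2 (4.16, edgeR adjusted p = 0.0014) and the mast cell tryptase Tpsb2 (0.697 ± 0.776 to 7.09 ± 0.538 CPM) were among the 3 highest of all. The 14 neuronal genes had a median of 0.61 against 14 d, and Snap25, at 453 ± 86.2 CPM then, was not called (1.20, edgeR adjusted p = 0.02).

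Against 42 d, 399 genes were called higher (2.08%) and 341 lower (1.78%), and without replicate 2 they were 170 and 190. The count was also lower without 42 d replicate 2 (260 in all), 42 d replicate 4 (411) or 70 d replicate 1 (312), and a fit of the 2 groups alone called 5 genes. Lipid handling genes were 4 of 15 lower and 1 higher. Abca1 was at 207 ± 23.8 CPM at 42 d and at 70.1 ± 11.7 CPM at 70 d (-1.57, edgeR adjusted p = 7.7e-05, and -1.58 without replicate 2), and Lpl (-0.98), Soat1 (-0.76) and Ch25h (-1.07) fell too. Apoc1 was the member that rose, from 231 ± 48.5 to 442.2 ± 134 CPM (0.94, edgeR adjusted p = 0.004). Apoe was not called against either time, at 52660 ± 2726 CPM at 14 d, 58300 ± 11840 CPM at 42 d and 42660 ± 15350 CPM at 70 d, with the widest spread at 70 d. Spp1 fell by 1.06 and Clec7a, a receptor of activated phagocytes, by 1.08. Calcrl, a receptor subunit for CGRP (-1.63), and Bc1, a small non-coding RNA of dendrites (3569 ± 1212 to 984.2 ± 339.4 CPM, -1.86), completed the 3 lowest, each at an edgeR adjusted p of 0.011 without replicate 2. The 3 highest, Scn11a (8.31), Fxyd2 (4.62) and Calca (3.61), all rested on replicate 2, without which they were at 3.09, 1.32 and 1.68 and not called. Fractalkine (Cx3cl1) rose against both times, from 111 ± 10.3 CPM at 14 d and 103 ± 8.37 CPM at 42 d to 155.3 ± 13.6 CPM at 70 d (edgeR adjusted p = 0.0033 and 0.00088), and stayed under the 256 ± 22.7 CPM of uninjured cord.

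**Figure D4:**
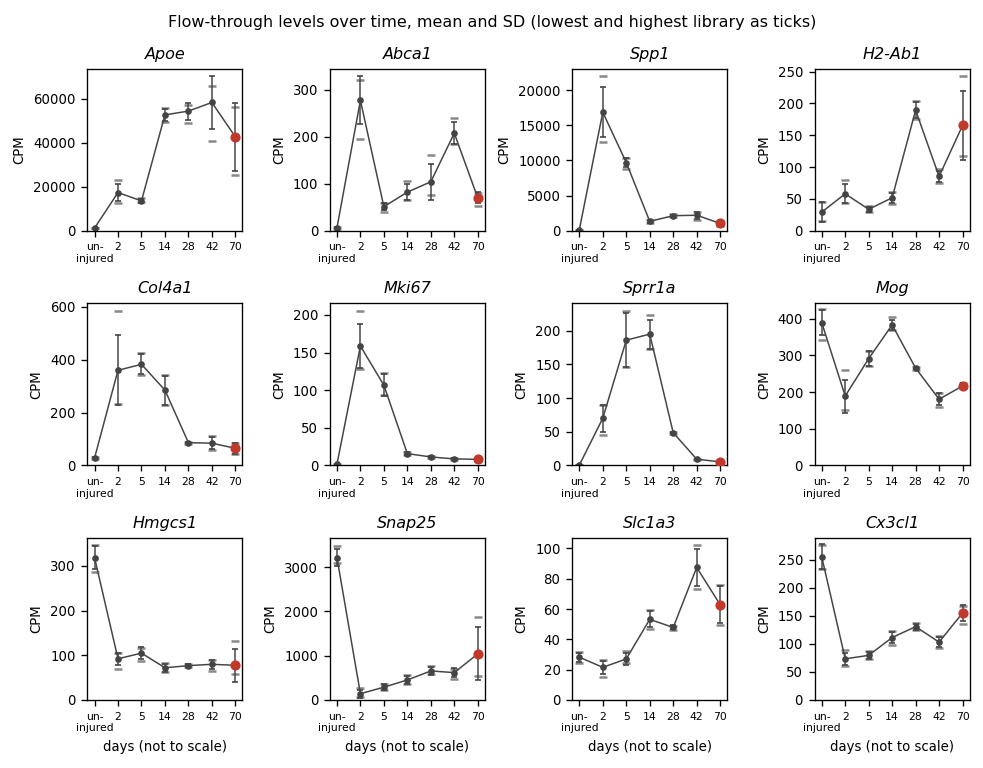
Each panel gives 1 gene in flow-through libraries of the Aldh1l1 line as mean CPM with its SD, from uninjured cord to 70 d (red point), with ticks at the lowest and highest library; the time axis is not to scale and the libraries at 2 d carry the sex mismatch given in the text. Spp1, Col4a1, Mki67 and Sprr1a are far below their early levels at 70 d, Apoe is still high, Hmgcs1 is low at every time after injury and Snap25 and Mog are below the uninjured level.

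The same mice gave astrocyte libraries, made from the RNA on the tagged ribosomes, and the change of each gene at 70 d was compared between the 2 fractions as an interaction over 16 libraries. In 2242 of 18540 genes (12.1%) the flow-through change was the higher and in 1096 (5.91%) the lower. With the mouse as a block the counts were 2877 (15.5%) and 1523 (8.21%). Apoe rose by 5.11 in the flow-through and by 1.03 in astrocytes (difference 4.08 ± 0.30, edgeR adjusted p = 9.8e-08). On the scale of this fit its mean level was 1082 CPM in the flow-through and 20530 CPM in astrocytes of uninjured cord, and 37370 and 42060 CPM at 70 d, so the fractions differed widely before and little after injury. Apoc1 (difference 5.28 ± 0.38), Htr2b (5.56 ± 1.2) and Gdf10 (4.91 ± 0.20) were the 3 highest among called genes with a mean of at least 5 CPM in a group and no overlap between the fractions in the change of single libraries. Gdf10, a growth factor of the TGF-beta family, rose by 2.93 in the flow-through and fell by 1.98 in astrocytes.

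Lysosomal genes gave a higher change in the flow-through in 13 of 23 cases and a lower one in 1, with medians of 2.50 in the flow-through and 1.19 in astrocytes, Ctsd at 4.26 against 1.41. Ctss, the cathepsin of antigen-presenting cells, was the exception (3.94 against 5.71). Lipid handling genes had 7 of 15 higher and 1 lower (medians 3.04 and 1.28), and MHC class I genes 5 of 12 higher (2.55 and 1.27). Counted with the mouse as a block, 17 of 23 lysosomal genes had a higher change and 2 a lower one. Lipid handling genes then had 11 higher and 1 lower, and MHC class I genes 8 higher. The counts of MHC class II and ependymal genes given next were the same with this block. MHC class II genes went the other way, with 6 of 10 at a lower change in the flow-through and none higher, and medians of 2.56 and 4.69. H2-Ab1 rose from 25.7 to 145.4 CPM in the flow-through and from 12.5 to 453 CPM in astrocyte libraries (difference -2.68 ± 0.59, edgeR adjusted p = 0.0026). Ependymal genes also had 7 of 10 lower (medians 0.96 and 2.86). For astrocyte genes the list medians had opposite signs, 0.69 in the flow-through and -1.10 in astrocytes, though not every member did. Of the 14, 12 had a higher change in the flow-through, and 13 with the mouse as a block. Slc1a2 moved from 229.5 to 289 CPM in the flow-through, where it was not called, and from 15850 to 5198 CPM in astrocytes (difference 1.94 ± 0.19), and its level in the flow-through remained under that in astrocytes at both times. Cholesterol synthesis was lower in both fractions, with medians of -1.42 and -2.66. Of 23 genes, 12 had a higher change in the flow-through (18 with the mouse as a block), such as Insig1 (-1.73 against -4.20). The 14 neuronal genes had medians of -1.08 in the flow-through and -1.13 in astrocytes. With the mouse as a block 2 of them had a higher and 1 a lower change in the flow-through, shares near those of all genes in that fit (15.5% and 8.21%). Under the same conditions, the first of which leaves out Pdyn (-4.52 ± 0.45), the 3 lowest differences were those of Ccn5 (-5.40 ± 0.50), a matricellular protein gene that rose by 3.03 in the flow-through and 8.43 in astrocytes, the chemokine Ccl8 (-4.48 ± 0.80) and the calcium-binding protein gene Cabp7 (-4.25 ± 0.50), which fell by 2.26 in the flow-through and rose by 1.99 in astrocytes.

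**Figure D5:**
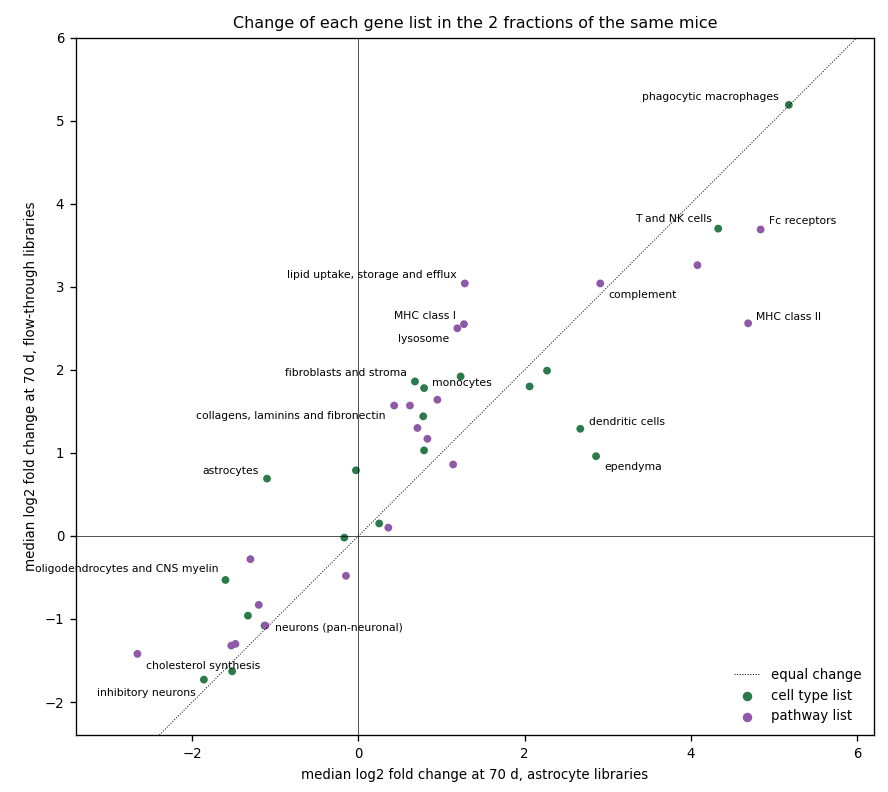
Each point is a gene list (green for cell types, purple for pathways), placed at its median log2 fold change at 70 d in astrocyte libraries (horizontal axis) and in flow-through libraries (vertical axis) of the same mice; the dotted line marks equal change. Lipid handling, lysosome, MHC class I and astrocyte lists lie above the line and MHC class II and ependyma below it, and phagocytic macrophage and pan-neuronal lists lie close to it.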

How the data were processed

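RNA of spinal cord flow-through fractions was sequenced (poly-A, paired reads) in 4 uninjured mice and 4 mice at 70 d. Per the labels and the study's methods, the authors used Galaxy to run Trimmomatic for trimming, HISAT2 for alignment (mm10) and featureCounts for counting, and deposited raw read counts for 27179 Entrez genes per library, 1 file per library; the annotation release was not given in the sources used here. RefSeq on GRCm38, the same build, named 25275 of the genes. Default counting leaves out multi-mapped reads and ignores strand, so near-identical genes and antisense partners are uncertain.

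Genes passing filterByExpr were tested with edgeR 4.0.16 (R 4.3.3) quasi-likelihood fits on TMM-scaled counts, with Benjamini-Hochberg FDR under 0.01, the threshold of the study. The main fit held 8 libraries, the time fit 29 flow-through libraries in 7 groups, and the interaction fit 16 libraries. DESeq2 1.42.0, other scalings and filters, a replicate block and leaving out each library were the alternatives. Flow-through and astrocyte libraries of the same number came from the same mouse, and their deviations from the group means correlated (r 0.38 to 0.65 over 9417 genes).

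The comparison, its gene lists and its tests were chosen with earlier results of these data known. Named genes were the first 2 members and the called extremes of each of 41 lists, the 6 highest and 6 lowest called genes overall (groups apart, mean of at least 5 CPM in the higher group) and the 3 highest and lowest of each other comparison; all others were chosen as examples after their values were seen. The lists of primary sensory neurons and mitochondrially encoded mRNAs were added after seeing the data. On simulated data, in which 200 of 18056 genes were changed, the main test recovered 56% of 2-fold and 83% of 4-fold changes (100 genes each). In the real libraries 46.4% of genes were called, so these rates need not hold for them. Some genes are not reported here. P-values measure the spread between these mice.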

Additional observations from a re-analysis of the deposited data

Results flagged for a closer look

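Single libraries stood apart from the other 3 of their group, by the gap to the nearest library over the range of the group, in 19 of 286 pairs of a named gene and a group and in 4 of 86 pairs of a list and a group. Chance flags about 1 in 20 among genes chosen without their values. Many named genes were chosen by their values, and Scn11a, Fxyd2 and Calca were named through 70 d replicate 2, so that rate does not apply to these flags. In 11 of the 19 the library was 70 d replicate 2. It was the high library for genes of sensory neurons and of the peripheral nervous system, in CPM at Calca 254.3 (others 8.541 to 41.76), Fxyd2 254.3 (4.915 to 11.09), Tac1 84.08 (15.96 to 26.46), Ngfr 61.26 (10.69 to 16.22), Scn11a 49.91 (0.0774 to 0.7753) and Isl2 36.09 (0.6372 to 3.038). It was also high for the cholesterol synthesis gene Sqle, 36.41 (15.82 to 18.3), and for the immunoglobulin gene Ighg2b, 8.323 (1.938 to 2.98). It was low for H2-K1, 383.8 (581.3 to 605.4), Bgn, 180.4 (380.2 to 403.2), and Itgal, 2.969 (6.458 to 6.908). The part of ganglion tissue in these values was not tested.

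In the other injured libraries the flagged value was Hba-a1 in replicate 3, 63.08 CPM (3.938 to 11.83). Among uninjured libraries they were C3 in replicate 3, 58.77 CPM (40.95 to 43.52), Isg15 in replicate 2, 6.289 (3.595 to 3.98), Snap25 in replicate 4, 3724 (3278 to 3312), Calcrl in replicate 4, 1.45 (2.08 to 2.202), Glra1 in replicate 1, 7.837 (14.58 to 15.74), Mmp12 in replicate 1, 0.342 (0.01946 to 0.04894), and Klrb1c in replicate 1, 0.07599 with 0 in the others. For lists, the median log2 level over the members, relative to its mean in the uninjured libraries, was 0.18 for cholesterol synthesis in uninjured replicate 3 and -0.18 for glutamate receptors in uninjured replicate 1. At 70 d it was 0.66 for OPCs and premyelinating oligodendrocytes in replicate 2 (others 1.05 to 1.13) and 0.31 for endothelium in replicate 4 (others -0.04 to -0.01).

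The change at 70 d differed between the flow-through and the astrocyte fraction in 3338 genes by the interaction test of edgeR, 41 of them reported here and named by the rule for genes. The flow-through change was the higher, in log2 units, for Htr2b (5.56), Apoc1 (5.28), Gdf10 (4.91), Cst7 (4.24), Apoe (4.08), Gpnmb (3.22), Ctsd (2.85) and Lgals3 (2.29). Among immune and stress genes it was higher for B2m (2.16), H2-K1 (2.08), Sprr1a (2.06) and Atf3 (1.78). Among genes of stroma, vessels and cholesterol transport it was higher for Col1a2 (1.93), Abca1 (1.82), Pdgfrb (1.72), Calcrl (1.7), C1qtnf6 (1.6), Col4a1 (1.25) and Vegfa (1.04). Among glial and sterol genes it was higher for Ugt8a (1.8), Sox9 (1.68), Aldh1l1 (1.58), Slc7a10 (1.32), Cspg4 (1.04) and Ebp (0.57). It was the lower for Ccn5 (-5.4), Pdyn (-4.52), Ccl8 (-4.48), Cabp7 (-4.25) and Pcdhac2 (-2.85). The genes H2-Ab1 (-2.68), H2-Aa (-2.54), Ighm (-1.89), Ctss (-1.77) and H2-Ob (-1.73), all of antigen presentation or antibodies, were lower too. So were Mmp24 (-1.66), Cx3cl1 (-1.58), Foxj1 (-1.38), Basp1 (-1.38), Plvap (-1.24) and Nfasc (-0.72).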

How the results depend on the processing

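Over the alternatives, 2057 values of named genes kept their side of the threshold, 80 lost and 23 gained the call and 2 reversed. A reversal was counted only where the gene was called in the main fit or in the alternative. Changes of sign without a call are therefore among the 2057, as for Calca (1.14 in the main fit, -0.79 without 70 d replicate 2). Of list medians 525 stayed within the replicate spread, 33 moved and 1 reversed. The counted reversals were Tac1 (-0.65) and the primary sensory neuron list (median -0.35) without 70 d replicate 2 (leaving out single libraries gave -0.65 to 0.38 and -0.35 to 3.49), and Ebp (0.00) with offsets for exon length, since changes fell with exon length across genes. For 70 d against uninjured, counts of called genes stayed within 1.5 times the main count under every alternative run: 6747 with a replicate block, 8701 with length offsets (3920 higher, 4781 lower), 9790 by DESeq2 and, leaving out 1 library, 6885 to 9529 (higher 3811 to 4954, lower 3074 to 4575). Same-numbered uninjured and injured mice share only a number (r -0.30 to -0.18). Scaling to library totals moved the median of all genes to -0.07 and the split of calls to 4057 higher and 4210 lower, from 53.7% to 49.1% higher. Leaving out 1 library, calls in the lists ranged from 401 to 468 (higher 267 to 294, lower 134 to 174).

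Counts against 14 d and 42 d depended on the method, and the cause was not tested. Against 14 d they were 2425 at an FDR under 0.05 (1096 higher, 1329 lower), 1716 by DESeq2 (820 higher), 580 in a fit of those 2 groups alone (180 and 400), 205 higher with the replicate block (719 in all), and 348 to 1172 leaving out 1 library (72 to 482 higher, 268 to 690 lower). Against 42 d they were 2065 at an FDR under 0.05 (1086 and 979), 1485 by DESeq2 (842 and 643), 5 in a fit of the 2 groups alone (1 and 4) and 260 to 741 leaving out 1 library (162 to 467, 91 to 292). Against 2 d they were 4956 with the 2 groups alone (2252 and 2704) and 8537 to 9885 leaving out 1 library (4570 to 5545, 3967 to 4340), and 9175 with the replicate block. The interaction gave 5225 at an FDR under 0.05 (1909 lower), 1887 lower by DESeq2, 4400 with the mouse block and 2324 to 3867 leaving out 1 library (1586 to 2481, 738 to 1386).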

Other observations

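Transcripts encoded by the mitochondrial genome, a list added after seeing the data, summed to 48230 to 57540 CPM in uninjured flow-through and 32420 to 35110 CPM at 70 d, with 5 of 13 called lower, none higher and a median of -0.50. In astrocyte libraries of the same mice their median was -2.56. By the interaction test of edgeR, 10 of the 13 had a higher change in the flow-through, and 11 with the mouse as a block.

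Across 17443 genes with a known exon length, the change at 70 d fell with length (Spearman rho -0.25, Pearson r -0.23, across genes of the same 8 libraries, which are not independent replicates). Of genes cut by length into 5 equal groups, the shortest had a median of 0.38, with 1195 called higher and 298 lower, and the longest a median of -0.29, with 552 higher and 1202 lower.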
